A study of Mus musculus with 12 samples.

Results

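The 10 genes described here encode receptors, ligands and effectors of bone morphogenetic protein (BMP) and activin signalling: Bmpr2, Limk1, Bmpr1a, Bmpr1b, Bmp2, Bmp4, Inha, Inhba, Inhbb and Smad4. They were chosen by Ensembl gene identifier, each on its stated chromosome, and all 10 of them were found among the 55416 annotated genes of the input count files. In the table of immunoprecipitation ratios, 6 of the 10 had rows, 9 rows of 14447 in all. The libraries came from whole E16.5 mouse ovary, as pools of 5 ovary pairs, of Fmr1 knockout (KO) and wild-type (WT) embryos. All 12 samples carry the strain label B6.129P2-Fmr1tm1Cgr/J, with the WT described as littermates for the input samples, and the labels do not say whether the KO ovaries were homozygous. Each genotype had 3 input libraries and 3 libraries of RNA immunoprecipitated with the FMRP antibody ab17722 (RIP). KO was used here as the background for the antibody. FMRP, the product of Fmr1, is an RNA-binding protein that regulates translation, and Bmpr2 is a reported target of it.

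BMP and activin ligands are secreted dimers that bring type II and type I receptor kinases together on the cell surface. The type I receptor then phosphorylates receptor Smads, which enter the nucleus with the common Smad4 and switch on genes such as those of the Id family. The long cytoplasmic tail of Bmpr2 also binds Limk1, a kinase that phosphorylates cofilin and so slows the turnover of actin filaments. In the fetal ovary these ligands act between somatic and germ cells, and activins and inhibins, built from shared beta subunits, are best known as gonadal regulators of follicle-stimulating hormone.

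The input libraries held 18880238 to 25707718 counted reads. Fmr1 itself fell in KO, from 213 ± 8.47 CPM (counts scaled to library size) to 101 ± 19.8 (SD over 3 libraries each; edgeR, adjusted p = 0.00775). Fmr1 RNA thus remained in KO, at 47.3% of the WT mean. The libraries do not measure FMRP protein, so whether the KO background of the RIP was free of FMRP is not known. Markers of the ovary were present in every input library: the germ cell genes Dazl, Ddx4, Sycp3 and Stra8 summed to 191 to 228 CPM in KO and 141 to 188 in WT, and the pregranulosa genes Foxl2, Wnt4, Lgr5 and Irx3 to 230 to 248 and 219 to 252 CPM. The Sertoli genes Sox9 and Amh summed to 10.2 to 11.7 CPM in KO and 10.6 to 11.6 in WT. The mesonephros genes Pax2, Pax8 and Lhx1 summed to 36.1 to 38.5 CPM in KO and 37.5 to 41.7 in WT. The stroma genes Col1a1, Pdgfra and Nr2f2 summed to 7896 to 9078 CPM in KO and 7383 to 9829 in WT. Markers of macrophages, endothelium and surface epithelium were also present in every input library, with sums that overlapped between genotypes. The germ cell sums did not overlap between genotypes, though each of the 4 genes overlapped by itself. Nor did the sums of the globins Hba-a1 and Hbb-bt overlap, at 5092 to 6659 CPM in KO and 7020 to 9923 in WT. Of all tested genes, 5.69% were lower and 5.22% higher in KO without overlap. In either list 0 genes passed the test. The part of germ cells and globins in the values below was not tested. In whole ovary, fewer cells of a type and less RNA per cell cannot be told apart. The RIP libraries differed in spread: the 99th percentile of the ratios was 25.1 in KO replicate 2, 17.1 in KO replicate 3 and 21.7 in WT replicate 1, against 10.3 to 11.6 in the other 3 libraries.

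All 10 genes were expressed, and their levels, compared per kilobase of annotated exon, spanned about an order of magnitude. Bmpr1a, a type I receptor for BMP2 and BMP4, stood highest at 38.4 ± 1.41 CPM per kb in WT input (SD, n = 3), above 95.1% of the 23698 tested genes. Smad4 followed at 34.3 ± 1.92 and Bmpr2 at 15.5 ± 0.018 CPM per kb. The inhibin alpha subunit gene Inha stood at 10.7 ± 1.03, Inhba at 7.61 ± 0.488, Limk1 at 7.33 ± 0.497 and Bmp2 at 6.02 ± 0.540 CPM per kb. Bmp4, at 5.25 ± 0.746, Inhbb, at 4.27 ± 0.414, and Bmpr1b, at 4.14 ± 0.577 CPM per kb, were the lowest, and Bmpr1b still lay above 57.2% of tested genes. In this order the WT values of neighbouring genes overlapped for Inhba and Limk1, Bmp2 and Bmp4, Bmp4 and Inhbb, and Inhbb and Bmpr1b. Whether those neighbours differ in level was not tested. Within a library, Inhba was above Limk1, and Bmp4 above Inhbb, in 3 of 6. Inhbb was above Bmpr1b in 4 of 6 and Bmp2 above Bmp4 in 5 of 6. Bmpr1a was above Smad4 in 6 of 6 libraries, and the steps from Smad4 to Bmpr2, Bmpr2 to Inha, and Inha to Inhba were free of overlap over all 6. These levels rest on the union of all annotated exons of a gene, 17983 bp for Bmpr2, so a gene with long rarely used exons appears lower.

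**Figure D1:**
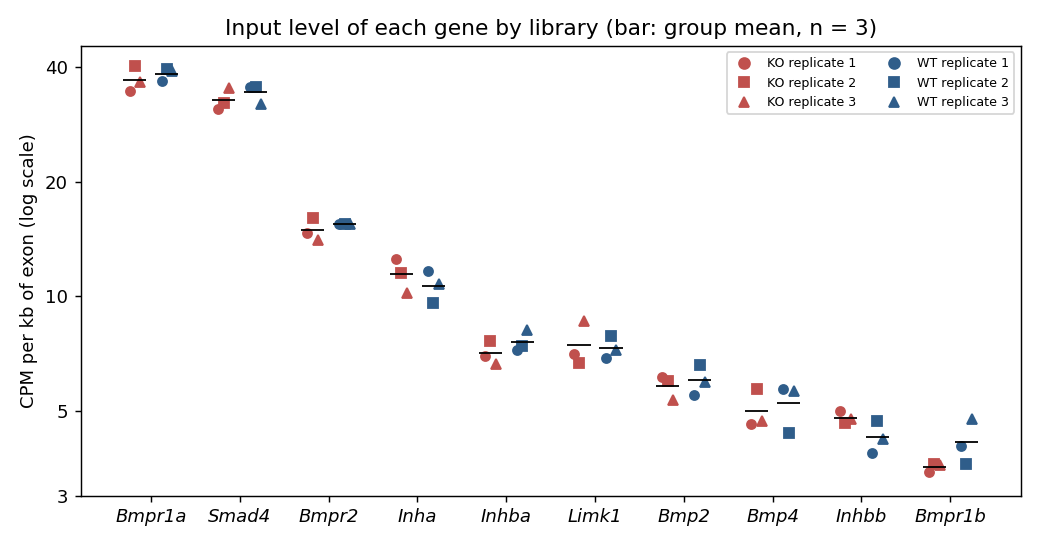
Input level of the 10 genes in CPM per kb of exon (log axis), with 1 point per library, KO in red and WT in blue, and a black bar at each group mean (n = 3). Genes are ordered by their WT mean, from Bmpr1a at 38.4 to Bmpr1b at 4.14, and the KO and WT points overlap for each gene.

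Members of a family were also compared with each other. The type I receptor Bmpr1a was 8.19-fold to 11.03-fold above Bmpr1b per kb in the 6 input libraries, averaging 10.4 ± 0.570 in KO against 9.39 ± 1.37 in WT (SD over 3 libraries). The activin beta A gene Inhba was 1.39-fold to 1.94-fold above the beta B gene Inhbb, at 1.47 ± 0.143 in KO and 1.79 ± 0.191 in WT. Inha, whose product turns a beta subunit into inhibin, stood at 0.790 to 1.05 of the summed level of the beta genes. Bmp2 stood at 0.967 to 1.503 of the level of Bmp4. The KO and WT values of each of these ratios overlapped.

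The first comparison asked whether loss of Fmr1 went with another RNA level of these genes in the ovary. None of the 10 passed the test, and none had an unadjusted p under 0.05 (quasi-likelihood test of edgeR, KO over WT, adjusted over 23698 genes by Benjamini-Hochberg). DESeq2 likewise called 0 of 10, with 0 at an unadjusted p under 0.05. Over all genes 0.0422% were called, so a count of 0 among 10 says little by itself. The KO and WT libraries overlapped for each of the 10, where 5.69% of all tested genes were lower and 5.22% higher in KO without overlap. Unadjusted p-values under 0.05 were found for 3.00% of all tested genes lower and 2.90% higher in KO, so these counts of 0 are near the background too. The log2 changes ran from -0.21 for Bmpr1b to 0.17 for Inhbb, with a median of -0.050 against -0.0020 over all tested genes. Of the 10 estimates 7 were below 0, where 11969 of the 23698 tested genes were. The 95% intervals give the size that remained possible: between 88.3% and 106% of the WT level for Bmpr2, and between 72.4% and 103% for Bmpr1b.

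**Figure D2:**
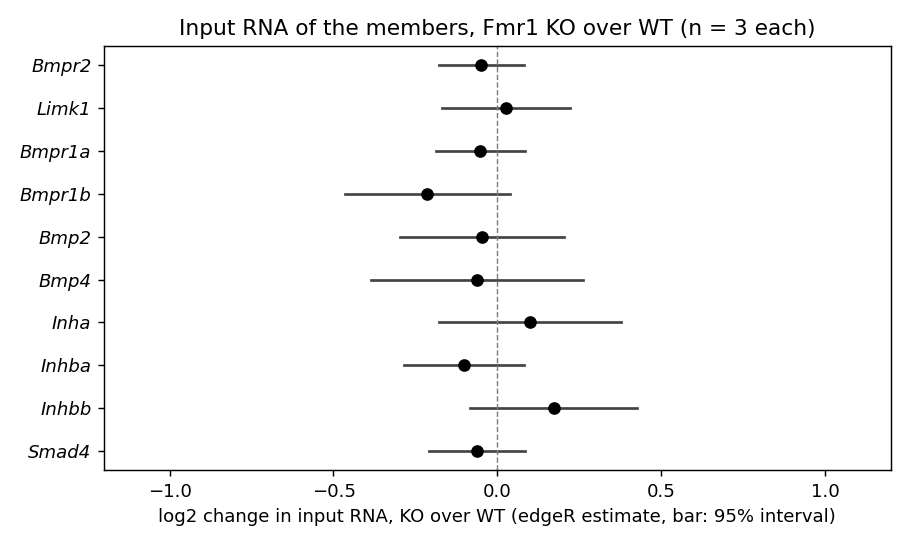
log2 change in input RNA, KO over WT, for the 10 genes; points are edgeR estimates from 3 KO and 3 WT libraries and bars their 95% intervals. The estimates lie between -0.21 and 0.17 and every interval includes 0.

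Bmpr2 (ENSMUSG00000067336, chromosome 1, 59802559 to 59918173, plus strand) encodes the type II receptor for BMPs. Its input level was 264, 289 and 253 CPM in the KO libraries, given here and below in the order of the replicate numbers, and 278 CPM in each WT library, from 4778 to 7055 reads. The WT libraries had an SD of 0.331 CPM and the KO libraries, which lay on both sides of them, one of 18.5 CPM (n = 3 each). This gave a log2 change of -0.049 (SE 0.062, adjusted p = 0.977, edgeR). Limk1 (ENSMUSG00000029674, chromosome 5, 134684893 to 134717452, minus strand), the kinase tethered by the tail of Bmpr2, stood at 50.7, 47.9 and 61.9 CPM in KO and 49.2, 56.3 and 51.9 CPM in WT. KO replicate 3 was the highest of the 6 libraries and KO replicate 2 the lowest. The log2 change of Limk1 was 0.026 (SE 0.094, adjusted p = 0.991, edgeR), and without KO replicate 3 it was -0.087 and without WT replicate 1 -0.018.

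Bmpr1a (ENSMUSG00000021796, chromosome 14, 34132691 to 34225298, minus strand) had 220, 255 and 231 CPM in KO and 234, 250 and 248 CPM in WT. The highest and the lowest library were both KO, for a log2 change of -0.051 (SE 0.066, adjusted p = 0.977, edgeR). Of its exonic bases 4.57% are shared with a gene on the opposite strand, and strand was not used in counting. Bmpr1b (ENSMUSG00000052430, chromosome 3, 141542897 to 141875186, minus strand), a type I receptor that in the adult ovary serves BMP15 signalling in granulosa cells, had the lowest estimate of the 10 with all libraries included. It stood at 20.6, 21.7 and 21.6 CPM in KO and 24.1, 21.6 and 28.4 CPM in WT. WT replicate 3 was the highest library, and WT replicate 2 lay among the KO values. KO averaged 86.2% of WT (log2 change -0.21, SE 0.12, adjusted p = 0.893, edgeR), and the change was -0.10 without WT replicate 3, when Smad4 was lower at -0.11.

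Bmp2 (ENSMUSG00000027358, chromosome 2, 133394079 to 133404805, plus strand) encodes a ligand that pregranulosa cells make in the fetal ovary. It stood at 21.8, 21.3 and 19.0 CPM in KO and 19.6, 23.4 and 21.2 CPM in WT, with a log2 change of -0.047 (SE 0.12, adjusted p = 0.987, edgeR). Bmp4 (ENSMUSG00000021835, chromosome 14, 46620977 to 46628126, minus strand), the ligand needed earlier for the formation of primordial germ cells, had the fewest reads of the 10 genes, 200 to 325 per library. It stood at 10.4, 12.8 and 10.6 CPM in KO and 12.8, 9.86 and 12.7 CPM in WT, so that each genotype had libraries near 10 and near 13 CPM. Its log2 change of -0.062 (SE 0.16, adjusted p = 0.986, edgeR) had the widest 95% interval of the 10, from 76.6% to 120% of the WT level. The antisense overlap of Bmp4 covered 3.96% of its exonic bases.

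Inha (ENSMUSG00000032968, chromosome 1, 75483721 to 75487010, plus strand) encodes the alpha subunit, which is found in inhibins and not in activins. Its level was 18.5, 17.0 and 15.1 CPM in KO and 17.2, 14.1 and 15.9 CPM in WT, for a log2 change of 0.099 (SE 0.13, adjusted p = 0.978, edgeR). Inhba (ENSMUSG00000041324, chromosome 13, 16186436 to 16206206, plus strand), the beta A subunit of activin A, stood at 44.7, 48.8 and 42.4 CPM in KO and 46.3, 47.4 and 52.2 CPM in WT, for a log2 change of -0.10 (SE 0.088, adjusted p = 0.967, edgeR). Inhbb (ENSMUSG00000037035, chromosome 1, 119343195 to 119349978, minus strand), the beta B subunit of activin B, had the highest estimate of the 10 with all libraries included. It stood at 21.3, 19.8 and 20.3 CPM in KO and 16.53, 20.03 and 17.93 CPM in WT, and WT replicate 2 fell within the KO range. KO averaged 113% of WT (log2 change 0.17, SE 0.12, adjusted p = 0.957, edgeR). Without WT replicate 1 its change was 0.11 and that of Inha, at 0.17, was higher. The alpha and beta B estimates were thus above 0 and the beta A estimate below 0, with intervals that all included 0.

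Smad4 (ENSMUSG00000024515, chromosome 18, 73772080 to 73836851, minus strand), the partner shared by the BMP and the activin branch, stood at 115, 120 and 131 CPM in KO and 131, 132 and 119 CPM in WT. KO replicate 3 lay with the higher WT libraries and WT replicate 3 with the lower KO libraries. Its log2 change was -0.063 (SE 0.070, adjusted p = 0.976, edgeR).

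The second comparison asked whether the antibody recovered more of these transcripts from WT than from KO ovary. The clearest separation was in 1 of the 3 rows of Bmpr2, where the fold enrichment was 1.49-fold higher in WT and the genotypes did not overlap. It did not pass the test over all rows. None of the 9 rows did (limma on log2 of ratio + 1, WT over KO, Benjamini-Hochberg adjustment over 14365 rows), and the share called over all rows was 0.00%. An unadjusted p under 0.05 was found for 1 row higher in WT, of Bmpr2, and for 1 higher in KO, of Bmp4. Over all tested rows these shares were 5.97% and 2.88%. The groups did not overlap in 1 of the 9 rows, higher in WT, where 8.39% of all tested rows did so. A count of 1 among 9 rows is near these shares and says little by itself. The median log2 difference of the 9 rows was 0.056 against -0.0027 over all tested rows. The ratio was computed by the authors, the sources used here give neither its denominator nor where on a transcript a row lies, and its depth is unknown.

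**Figure D3:**
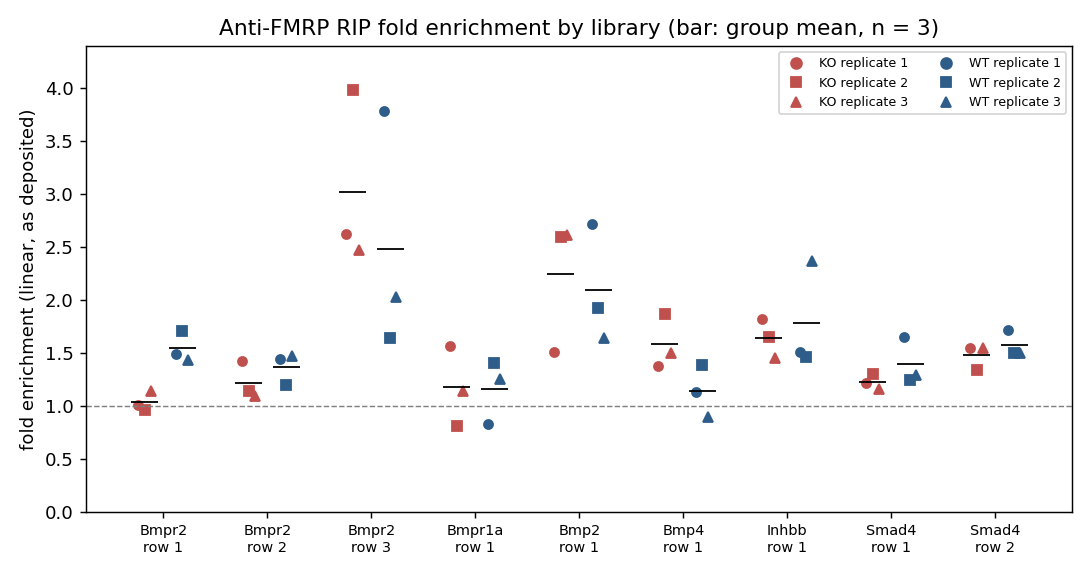
Fold enrichment in the anti-FMRP RIP (linear scale, as deposited) for the 9 rows, with 1 point per library, KO in red and WT in blue, black bars at group means (n = 3) and a dashed line at 1. In Bmpr2 row 1 the WT points, from 1.44 to 1.71, lie above the KO points, from 0.963 to 1.14, and in the other 8 rows the groups overlap. The median ratio over all rows of a library was 1.72 to 1.78.

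The 3 rows of Bmpr2 are numbered here from the lowest to the highest mean. Row 1 had ratios of 1.01, 0.963 and 1.14 in the KO libraries and of 1.49, 1.71 and 1.44 in the WT libraries. Each WT library lay above each KO library. The mean was 1.04 ± 0.094 for KO against 1.54 ± 0.144 for WT (SD over 3 libraries), and the log2 difference on the scale of ratio + 1 was 0.32 (SE 0.077, adjusted p = 0.419, limma). The KO mean was low among all rows, with 2.69% of rows lower, while 30.6% of rows had a lower WT mean. Each WT value of row 1 lay below the median ratio of its own library, at 1.77, 1.74 and 1.72. The row stood at place 174 in the deposited order, and the other member rows at places from 1662 (Bmp4) to 14148 (Bmpr1a). What sets that order is not given in the sources used here. With each library left out in turn the log2 difference stayed between 0.27 and 0.36, while pseudocounts of 10 and 0.1 in place of 1 gave 0.065 and 0.53, and the adjusted p over the 12 alternatives ran from 0.407 to 0.648.

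The other rows of Bmpr2 did not show that separation. Row 2 had ratios of 1.42, 1.14 and 1.09 in KO and 1.440, 1.2001 and 1.474 in WT, with KO replicate 1 at the level of the WT libraries (log2 difference 0.098, SE 0.091, adjusted p = 0.791, limma). Row 3, the most enriched row of the 10 genes, had ratios of 2.62, 3.98 and 2.47 in KO and 3.79, 1.64 and 2.03 in WT. Here KO replicate 2 and WT replicate 1, the libraries with the widest spread of ratios, were the highest, and the mean was 1.22-fold higher in KO (log2 difference -0.24, SE 0.25, adjusted p = 0.817, limma). With each library left out in turn the difference of row 3 ran from -0.48 to -0.061. Whether the rows of Bmpr2 differ from each other in their response was not tested.

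Bmp4 had 1 row, with ratios of 1.374, 1.866 and 1.503 in KO and 1.13, 1.38 and 0.899 in WT. It was the member row with the largest excess in KO, at 1.39-fold, and the groups overlapped only through WT replicate 2 and KO replicate 1 (log2 difference -0.27, SE 0.11, adjusted p = 0.522, limma). The WT mean of 1.14 ± 0.243 was among the lowest, with 3.73% of rows below it. Bmp2 had ratios of 1.51, 2.60 and 2.62 in KO and 2.72, 1.93 and 1.65 in WT. The 3 libraries with the wider spread were the highest 3 for Bmp2, which 8.93% of all rows showed, and its log2 difference was -0.060 (SE 0.19, adjusted p = 0.953, limma).

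Bmpr1a showed the opposite order, with ratios of 1.57, 0.813 and 1.14 in KO and 0.832, 1.41 and 1.25 in WT. Its lowest 3 values were those of the wider libraries, as in 4.08% of all rows, and the difference between the genotypes was -0.00060 (SE 0.16, adjusted p = 1.0, limma). The depth behind these ratios is unknown, and the part of the library spread in them was not tested. Inhbb had ratios of 1.82, 1.65 and 1.45 in KO and 1.51, 1.46 and 2.37 in WT, with WT replicate 3 alone above the KO values (log2 difference 0.063, SE 0.14, adjusted p = 0.933, limma). Smad4 had 2 rows. The first had ratios of 1.21, 1.30 and 1.16 in KO and 1.65, 1.24 and 1.29 in WT, with WT replicate 1 apart from the rest (log2 difference 0.10, SE 0.081, adjusted p = 0.765, limma). The second ran from 1.34 to 1.55 in KO and from 1.499 to 1.718 in WT (log2 difference 0.056, SE 0.082, adjusted p = 0.877, limma).

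Limk1, Bmpr1b, Inha and Inhba had no row in the RIP table. Presence in the table followed input level: 29.6% of all tested genes had a row, but 87.1% of the 541 genes within 1.5-fold of the CPM of Bmpr2 did. By the same measure a row was listed for 63.3% of the genes like Limk1, 60.3% of those like Inhba, 44.3% of those like Bmpr1b and 35.2% of those like Inha. For the members that had rows the share was 86.3% for Bmpr1a, 79.5% for Smad4, 41.7% for Bmp2, 39.7% for Inhbb and 25.7% for Bmp4. Among genes within 1.5-fold in exonic length as well, the share was 58.1% for Limk1, 57.4% for Inhba and 56.1% for Inha, and Bmpr1b then had the lowest share of these 4. How rows were chosen for the table is not given, so a missing row does not show that a transcript was not recovered.

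The rest of the pathway was described through 6 lists of 52 identified genes, of 53 listed. Over these 52, 31 estimates in input were below 0 and 21 above, with a median log2 change of -0.017. Over all tested genes 11969 estimates were below 0 and 11729 above. None of the 52 passed in input (edgeR), and DESeq2 called 0 as well. An unadjusted p under 0.05 was found for 5 genes lower in KO and 1 higher, against 3.00% and 2.90% of all tested genes, and DESeq2 had 6 in both directions together. The lower 5 were Bmp5 and Bmp7, ligands, Smad6, an inhibitory Smad, Bambi, a decoy receptor, and Id1, a direct target of BMP signalling. That count fell to 1 without KO replicate 2, 3 without WT replicate 1 or WT replicate 2, and 2 without WT replicate 3, and it was 2 among the 30 genes identified by the stricter rule.

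**Figure D4:**
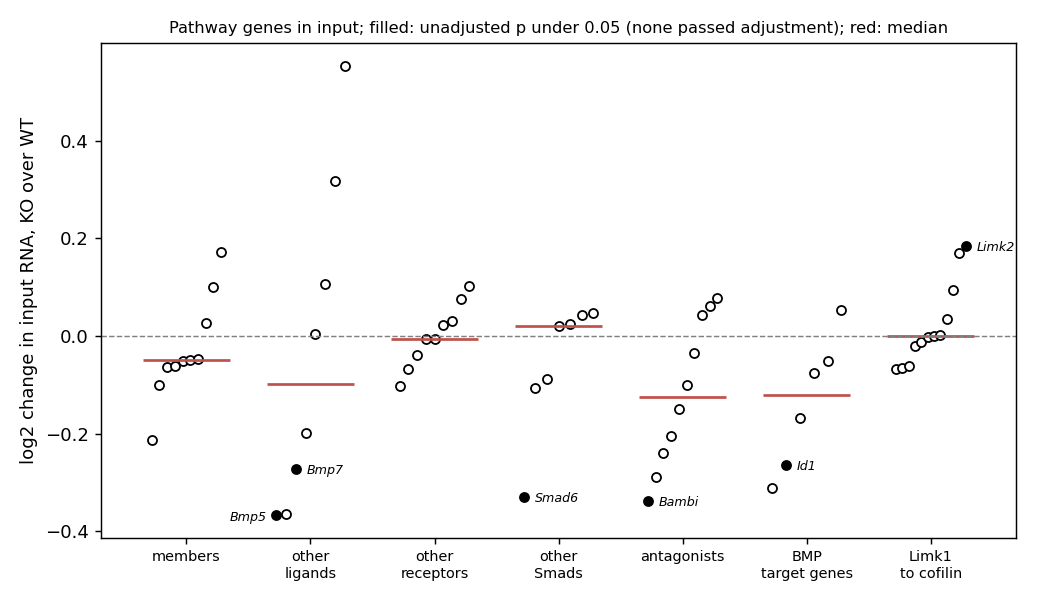
log2 change in input RNA, KO over WT, for the 10 members and the 52 genes of the 6 pathway lists, with 1 point per gene (edgeR estimate, 3 against 3 libraries); filled points have an unadjusted p under 0.05, and red bars are medians. The filled points are Bmp5, Bmp7, Smad6, Bambi and Id1 below 0 and Limk2 above 0, and none passed after adjustment.

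Among the other 8 ligands, 4 estimates were above and 4 below 0. Bmp7 was the most abundant per kb of exon, at 9.08 ± 0.635 CPM per kb in WT, and stood at 26.4, 29.4 and 34.9 CPM in KO and 35.6, 39.4 and 34.5 CPM in WT (log2 change -0.27, adjusted p = 0.735, edgeR). Bmp5 had the smallest p, with 11.9, 12.8 and 11.8 CPM in KO and 17.0, 13.1 and 16.9 CPM in WT, so that the groups did not overlap (log2 change -0.37, adjusted p = 0.720, edgeR). The oocyte ligands Gdf9 and Bmp15, which act later in follicles, stood at 0.555 and 0.160 CPM per kb in WT. Among the 9 other receptors the changes ran from -0.10 to 0.10. The receptor for anti-Müllerian hormone, Amhr2, was the most abundant, at 44.7 ± 1.15 CPM per kb in WT, and its log2 change was 0.076 (adjusted p = 0.975, edgeR). Acvr2a, a type II receptor for activins and BMPs, had the smallest p of that list in input (log2 change 0.10, adjusted p = 0.966, edgeR).

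Of the 7 other Smads, Smad5, a BMP receptor Smad, was the most abundant at 40.5 ± 0.603 CPM per kb in WT (log2 change 0.023, adjusted p = 0.986, edgeR). Smad6 stood at 19.95, 14.61 and 15.95 CPM in KO and 18.4, 21.3 and 23.7 CPM in WT (log2 change -0.33, adjusted p = 0.776, edgeR). Of the 10 antagonists, 7 had estimates below 0. Twsg1 was the most abundant of them, at 52.6 ± 0.487 CPM per kb in WT (log2 change -0.036, adjusted p = 0.980, edgeR). Bambi stood at 30.1, 23.1 and 27.8 CPM in KO and 29.9, 31.9 and 40.5 CPM in WT (log2 change -0.34, adjusted p = 0.691, edgeR), and its change was -0.20 without WT replicate 3.

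The 6 target genes had 5 estimates below 0 and a median log2 change of -0.12. Id1 stood at 29.07, 28.01 and 32.86 CPM in KO and 37.6, 36.1 and 34.1 CPM in WT, without overlap (log2 change -0.26, adjusted p = 0.705, edgeR). Id3, the most abundant per kb of exon, had 88.8 ± 8.98 CPM in KO against 93.5 ± 8.15 in WT (SD over 3 libraries; log2 change -0.076, adjusted p = 0.976, edgeR). The 12 genes from Limk2 to cofilin had a median of -0.0012. Limk2, a kinase related to Limk1, stood at 46.1, 44.0 and 45.5 CPM in KO and 39.2, 39.8 and 40.3 CPM in WT. Every KO library was above every WT library, at a log2 change of 0.18 (SE 0.085, adjusted p = 0.810, edgeR). Cdc42, a regulator of the actin cytoskeleton, was the most abundant of the list, with 230 ± 2.74 CPM in KO and 229 ± 6.66 in WT. Over all 52 genes the groups did not overlap for 4 genes lower in KO and 1 higher, where 5.69% and 5.22% of all tested genes did so.

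Rows in the RIP table were found for 28 of the 52 pathway genes, 57 in all, and 0 of the 56 tested rows passed (limma). Unadjusted p-values under 0.05 came from 4 of them, 2 higher in WT (Acvr2a and Rock2) and 2 higher in KO (Id4 and Msx1). The background for such p-values was 5.97% of all tested rows in the WT direction and 2.88% in the KO direction. Counts of 2 among 56 rows therefore say little by themselves. Acvr2a had the smallest p of the pathway rows. Its ratios were 0.883, 1.23 and 1.23 in KO and 1.71, 2.12 and 1.86 in WT, 1.70-fold higher in WT without overlap (log2 difference 0.46, SE 0.098, adjusted p = 0.377, limma). The rows of the other type II receptors listed, 4 of Amhr2 and 2 of Tgfbr2, overlapped between genotypes, with WT over KO ratios of 0.805 to 1.01. The lowest row of Rock2, a kinase that activates Limk1, had ratios of 1.23, 1.42 and 1.40 in KO and 1.64, 1.71 and 2.46 in WT (log2 difference 0.31, SE 0.12, adjusted p = 0.518, limma).

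Over the 56 tested pathway rows, 10 were higher in KO without overlap and 4 higher in WT, where 6.77% and 8.39% of all tested rows did so. The 10 included 4 of the 15 rows of the Limk1 to cofilin list and 4 of the 10 rows of BMP target genes, whose median log2 difference was -0.051. The 4 of the Limk1 to cofilin list were the 2 rows of Dstn and a row each of Cfl1 and Rac1. In that list 2 rows, of Cfl1 and Rock2, were higher in WT without overlap. The 4 target rows belonged to Id1, Id3, Id4 and Msx1, and the other row of Msx1 was higher in WT without overlap. Id4 had the smallest p of the list, with 2.509, 1.828 and 2.097 in KO and 1.36, 1.05 and 1.75 in WT (log2 difference -0.40, SE 0.14, adjusted p = 0.490, limma). The smallest p among the antagonists was that of Nbl1, at 1.53 ± 0.132 in KO against 1.32 ± 0.034 for WT (adjusted p = 0.670, limma). Among the Smads it was row 2 of Smad2, at 2.86 ± 0.884 in KO against 5.20 ± 2.04 for WT (adjusted p = 0.606, limma). The only other ligand with a row, Bmp7, had 2.30 ± 0.491 in KO against 1.86 ± 0.145 for WT (adjusted p = 0.714, limma). SDs are over 3 libraries.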

How the data were processed

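Per the file headers, the input counts are raw reads per gene made with featureCounts 1.6.3 over exons with Ensembl release 104, with no option for strand, pairs or multiple placements. The submitters' processing notes name BWA 0.7.12, MACS2 2.1.0, DESeq2 1.26.0 and GRCm38, without roles. The RIP values are a linear ratio (fold enrichment) deposited by the authors per library, and how it was made is not given in the sources used here. Coordinates are those of the count files and are not on the GRCm38 build that the notes name. The start of Bmpr1b, for example, lies 0.294 Mb from that of the GRCm38.p6 RefSeq gene, at 0.9995 of its span.

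Input was fitted in edgeR 4.0.16 under R 4.3.3 (TMM, filterByExpr, robust quasi-likelihood), with DESeq2 1.42.0 as an alternative. RIP ratios were tested with limma 3.58.1 (trend) on log2(value + 1), columns centred on their medians, rows with a mean of at least 1, which all 9 member rows passed. This scale understates changes of low ratios. All tests ran on whole tables at an adjusted p of 0.05, and both steps were tested on simulated data with independent noise in each library. The RIP libraries shared deviations across genotypes, with a correlation of 0.447 between KO replicate 1 and WT replicate 2. The simulated data therefore do not show how the RIP test behaves on these ratios. Replicates are the samples so labelled, and p-values measure only the spread between these pools.

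Members and lists were chosen with earlier results of these data known. All 10 members and, in each pathway list, the most abundant gene per kb, the gene with the smallest p and any gene past the threshold are named; in RIP, the row with the smallest p. The files hold no gene names. Of 53 listed pathway genes, 30 were tied to an identifier by chromosome, strand, a span within 10% and a start within 5 Mb of the RefSeq gene (GRCm38.p6), and 22 more by a rule added after seeing the files: the best overlap, of at least 0.5, once the local displacement between the builds, shared by at least 2 neighbouring genes, was taken into account. No coordinate from that table is printed.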

Additional observations from a re-analysis of the deposited data

How the results depend on the processing

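Of the 10 members 0 were called in input under all 10 alternatives (DESeq2 size factors, DESeq2, no low-count filter, the replicate block and each of 6 libraries left out), and 0 of the 9 RIP rows under all 12 (pseudocounts of 0.1 and 10, no filter, no centring, quantile normalization, the replicate block and each library left out). Replicate numbers gave no pairing (correlations of -0.071, -0.034 and -0.044 in input and -0.60, -0.34 and -0.22 in RIP for numbers 1, 2 and 3, no sample correlating best with its own number), and the replicate block left both counts at 0 and the log2 difference of Bmpr2 row 1 at 0.32. Leaving out a library turned the sign of small input changes: Limk1 ran from -0.087 to 0.10, Bmp2 from -0.11 to 0.024, Bmp4 from -0.17 to 0.0045, Smad5 from -0.0064 to 0.050, Id3 from -0.13 to 0.0049 and Cdc42 from -0.018 to 0.024 (-0.0043 with no low-count filter, 0.0017 in the reported fit). In RIP, Bmpr1a ran from -0.13 to 0.13 (0.0043 with a pseudocount of 0.1), Bmp2 from -0.23 to 0.040 and Inhbb from -0.089 to 0.14. The 5 pathway genes lower in KO at an unadjusted p under 0.05 became 1 to 5 with a library left out (1 without KO replicate 2, 3 without WT replicate 1 or 2, 2 without WT replicate 3) and 2 with the stricter identification. Ranked by CPM without length, 2 of the 10 members kept their place in the order of levels. The causes were not tested. The RIP ratios carry no depth, so their counting error is unknown; in input, Bmp4 had the fewest reads and the widest interval.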
